A study of Mus musculus with 24 samples.

Results

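The 10 genes described here are the TGF-beta ligands Tgfb1, Tgfb2 and Tgfb3, the activin subunit gene Inhba, the receptors Tgfbr1 and Tgfbr2, the thrombospondins Thbs1 and Thbs2, the matrix gene Tgfbi and the inhibitor Smad7. They were chosen by gene symbol, and all 10 were present among the 18723 genes of the expression table. RNA was sequenced from 24 tumours of the Lewis Lung Cancer (LLC) line, labelled lung adenocarcinoma, grown in wild-type mice. The vehicle, dual and triple groups held 8 tumours each. Dual tumours came from mice given 50 ug of poly I:C, an RNA duplex mimic that triggers innate RNA sensors, inside the tumour on days 11 and 15. The same mice were given 100 ug of anti-PD-1, an antibody that blocks a T cell checkpoint receptor, in the peritoneal cavity on days 7, 10 and 14. Triple tumours had both agents and, from day 6, a daily subcutaneous dose of 1 mg/kg PMX53, which is taken here as the agent the labels call anti-C5aR1, a block of the receptor for complement fragment C5a. The strain, age and sex of the mice and the site of implantation are not given in the sources used here. Groups given a single agent are not analysed here.

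TGF-beta ligands are secreted bound to their own propeptide in a latent complex that is held in the matrix or on cell surfaces by latent TGF-beta binding proteins, GARP and related proteins. Integrins, proteases and thrombospondin-1 can release the active ligand, which binds a type II receptor (Tgfbr2) that then recruits and phosphorylates a type I receptor (Tgfbr1). The type I receptor phosphorylates SMAD2 and SMAD3, which act with SMAD4 on target genes, and SMAD7 is an induced inhibitor that competes at the receptor and brings ubiquitin ligases to it. In tumours the pathway is known for its effects on fibroblasts and matrix and for restraint of T cells, and it is active in many cell types at once.

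Reads assigned to genes ran from 14438318 to 19254090 per tumour, and levels are given as deposited, in log2 CPM, the log2 of reads scaled to the size of the library. A gene was called where its limma p, adjusted by the Benjamini-Hochberg method over all 18723 genes, was under 0.05. Each mouse number occurred once, and the p-values measure the spread between these tumours. The S-numbers in the tumour titles were consecutive within each group, and the labels name no batch. An effect of any batch that follows these numbers and one of treatment cannot be told apart. In bulk RNA, fewer cells of a type and less RNA per cell cannot be told apart either. Tumours are named as in their titles. Triple tumour T_352_S48 stood apart with 0.386% of reads on the 12 fibroblast markers and 0.623% on the 10 macrophage markers, above every other tumour. The 20 skeletal muscle markers took 0.0141% to 0.0516% of reads in vehicle, 0.0222% to 0.0984% in dual and 0.0251% to 0.254% in triple tumours, and 5 triple tumours (T_352_S48, T_353_S45, T_354_S47, T_355_S43 and T_362_S42) exceeded every vehicle and dual tumour. Of 11 markers of lung adenocarcinoma, Nkx2-1, Sftpc, Sftpb and Sftpa1 were not analysed here, Epcam had 0 reads in 8 tumours, and Krt18 had a median of 455 reads.

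Members of the family differed in both directions between dual and vehicle tumours. Against vehicle, Inhba, Thbs1 and Smad7 rose, Tgfb3, Tgfbr1 and Thbs2 fell, and 4 of the 10 genes were not called. Among all genes 15% were called higher and 15.8% lower in this comparison. The groups did not overlap for 2 of the higher genes (Inhba and Thbs1) and 2 of the lower genes (Tgfb3 and Tgfbr1), where 5.81% and 3.65% of all genes separated the groups in those directions. The median log2 difference of the 10 genes was -0.09, and that of all genes was -0.03.

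In the triple group Tgfb1, Tgfb2, Inhba, Thbs1 and Tgfbi were higher than in vehicle and Tgfb3 and Tgfbr1 were lower, with 3 genes not called. The background was 23% of all genes called higher and 22.8% lower. The same 4 genes, Inhba and Thbs1 above and Tgfb3 and Tgfbr1 below, had groups that did not overlap, against 4% and 5.85% of all genes. This comparison and the preceding one share the 8 vehicle tumours. The median log2 difference was 0.52 over the 10 genes and -0.02 over all genes.

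Between the triple and dual groups, Tgfb1, Tgfb2 and Tgfbi were higher in the triple group, none was called lower, and 7 were not called. Here 11.4% of all genes were called higher and 9.97% lower. No member separated the groups completely, as 0.262% of all genes did upward and 0.214% downward. At an unadjusted p under 0.05, 4 members were higher and 0 lower, the addition being Tgfbr2. The median log2 difference was 0.28 over the 10 genes and -0.00 over all genes. An exact permutation test of each gene, adjusted in the same way, called 2 higher and 0 lower. With the 5 muscle-rich triple tumours left out, or with the muscle score as a covariate, limma called 0 of the 10 genes in this comparison, with 2 at an unadjusted p under 0.05 in each case. Over all genes it called 2 without those tumours and 6 with that covariate, against 4007 in the main fit. The loss of calls was therefore not particular to the 10 genes. Leaving out the muscle-rich tumours kept only T_331_S44, T_360_S46 and T_363_S41 in the triple group. Calls lost to the smaller group and calls lost with the muscle-rich tumours cannot be told apart. With the fibroblast score as a covariate limma called 1 of the 10 genes and 183 of all genes.

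**Figure D1:**
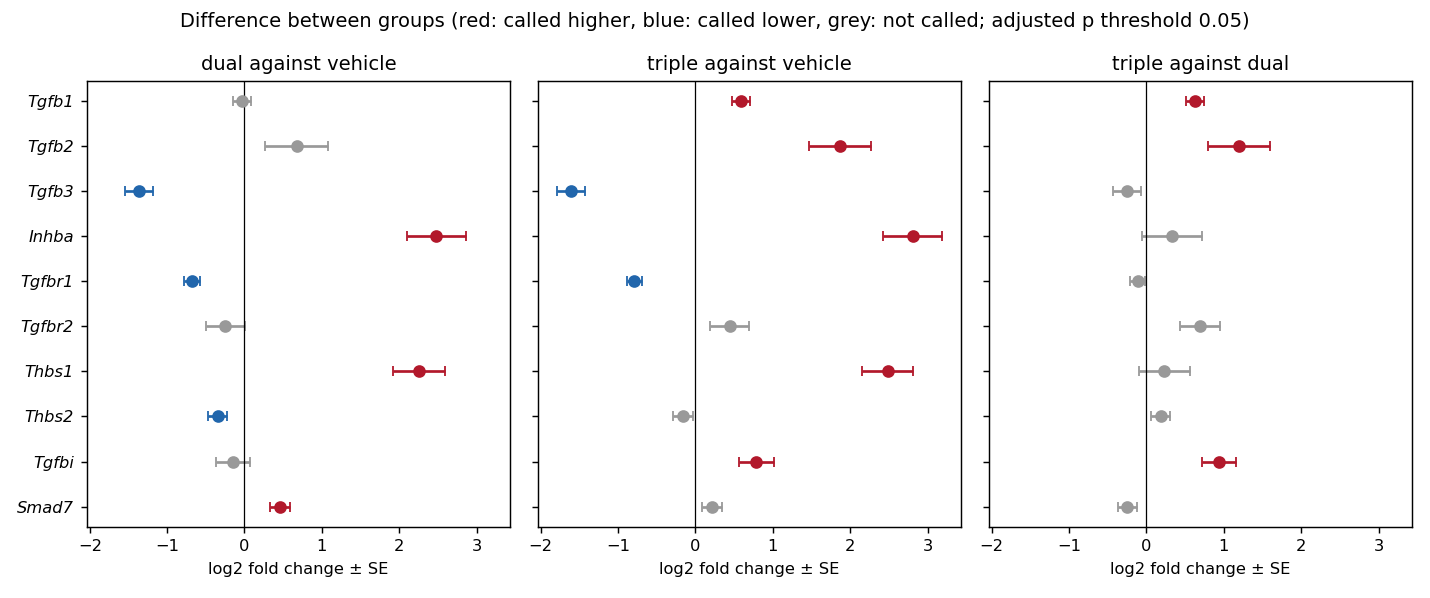
Log2 fold change of each of the 10 genes (rows) in the 3 comparisons (panels), with bars of 1 standard error from limma. Red points were called higher, blue points lower and grey points were not called; Inhba and Thbs1 lie far to the right and Tgfb3 and Tgfbr1 to the left in both comparisons with vehicle, and only Tgfb1, Tgfb2 and Tgfbi are red in the comparison of triple with dual.

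Tgfb1 (ENSMUSG00000002603.16, GRCm39 chr7:25386427-25404502, plus strand) encodes the isoform most often produced by immune cells and platelets. Its level lay at 6.74, 6.98 and 7.11 log2 CPM (lowest, median, highest) in vehicle tumours. Dual tumours lay at 6.76, 6.88 and 7.27, and triple tumours at 7.06, 7.51 and 8.18. Vehicle and dual tumours occupied the same range, and all but 1 of the 8 triple tumours lay above every vehicle tumour. The exception was T_331_S44. The difference between dual and vehicle was -0.03 ± 0.12 (log2, SE), which was not called (limma adjusted p = 0.854). Triple exceeded vehicle by 0.59 ± 0.12, a 1.51-fold difference (limma adjusted p = 0.000266). It exceeded dual by 0.62 ± 0.12, or 1.54-fold (limma adjusted p = 0.0047). When the 5 muscle-rich tumours were left out, triple exceeded vehicle by 0.27 ± 0.10 (limma adjusted p = 0.0529) and dual by 0.30 ± 0.10 (limma adjusted p = 0.413), so neither call held.

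Tgfb2 (ENSMUSG00000039239.15, GRCm39 chr1:186354989-186438186, minus strand), an isoform known from development and from epithelial and neural tissue, was close to the floor of the data. It had 6 to 24 reads per tumour in vehicle, 13 to 39 in dual and 18 to 276 in triple tumours. On the log2 CPM scale these were -1.22, 0.12 and 0.50 (lowest, median, highest) in vehicle, -0.27, 0.65 and 1.33 in dual, and 0.16, 1.70 and 4.03 in triple tumours. The high triple values were those of T_352_S48, with 276 reads, and T_355_S43, with 115 reads, and the 3 groups overlapped. Triple exceeded vehicle by 1.87 ± 0.41 (limma adjusted p = 0.000683) and dual by 1.20 ± 0.41 (limma adjusted p = 0.0383). Adding the muscle score as a covariate gave a difference from vehicle of 1.12 ± 0.51 (limma adjusted p = 0.126), which ended that call. Leaving out any 1 of 9 tumours ended the call against dual. These were D_344_S33, D_359_S39, D_368_S36, D_370_S38, T_352_S48, T_353_S45, T_354_S47, T_355_S43 and T_360_S46, with limma adjusted p-values of 0.0542 to 0.0863. Without the muscle-rich tumours triple and dual differed by 0.52 ± 0.41 (limma adjusted p = 0.709). Dual and vehicle differed by 0.67 ± 0.41 (limma adjusted p = 0.216), and by 1.13 ± 0.23 with the fibroblast score as a covariate (limma adjusted p = 0.000366).

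Tgfb3 (ENSMUSG00000021253.8, GRCm39 chr12:86103519-86125815, minus strand), the isoform known for its part in palate and lung development, fell. Vehicle tumours lay at 6.07, 6.37 and 7.34 log2 CPM, dual tumours at 4.59, 4.93 and 5.91, and triple tumours at 4.38, 4.80 and 5.22 (lowest, median, highest). Every treated tumour lay below every vehicle tumour. Among vehicle tumours C_364_S28 was the highest, followed by C_356_S27 at 6.69, and among dual tumours D_370_S38 was the highest. Tgfb3 fell by 1.36 ± 0.18 in dual, a 2.57-fold decrease (limma adjusted p = 8.33e-06), and by 1.61 ± 0.18 in triple tumours, a 3.05-fold decrease (limma adjusted p = 6.19e-07). Triple and dual differed by -0.25 ± 0.18 (limma adjusted p = 0.323). Ttll5 overlaps Tgfb3 on the opposite strand at a mean of 4.17 log2 CPM, against 5.44 for Tgfb3, and no source used here gives the strand setting of the counting. The 12 fibroblast markers took 0.152% to 0.260% of reads in vehicle, 0.0585% to 0.156% in dual and 0.0704% to 0.386% in triple tumours. Of these, 1 was called higher and 4 lower in dual than in vehicle, where 15% and 15.8% of all genes were, and none was at 0 reads. With the fibroblast score as a covariate the dual difference of Tgfb3 was -1.35 ± 0.19. The score averages markers that moved in opposite directions. In dual tumours the means of Dpt, Fap, Pdgfra, Pdgfrb, Col6a1, Col6a2 and Lum were lower than in vehicle. Those of Sfrp2, Pdpn, Mfap5, Thy1 and Pi16 were higher. This fit therefore cannot decide the part of fibroblasts in the fall of Tgfb3, which was not tested otherwise.

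Levels of different genes were compared per length, as RPKM (reads per kilobase of exon, scaled to the reads of the tumour). On this scale Tgfb1 supplied 36.2%, 50.2% and 56.3% (lowest, median, highest) of the summed per-length reads of Tgfb1, Tgfb2 and Tgfb3 in vehicle tumours. It supplied 57.1%, 72.2% and 77.8% in dual and 70.4%, 81.2% and 86.7% in triple tumours, with Tgfb3 making up nearly all of the remainder. No dual or triple tumour had a Tgfb1 share as low as the highest vehicle tumour, while the dual and triple ranges overlapped. Tgfb2 made up a median of 0.340% of the pool in vehicle, 0.779% in dual and 1.11% in triple tumours. The summed per-length level had a median of 48.4 RPKM in vehicle, 33.5 in dual and 46.3 in triple tumours. These shares are ratios within a tumour and show unequal change among the ligands.

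**Figure D2:**
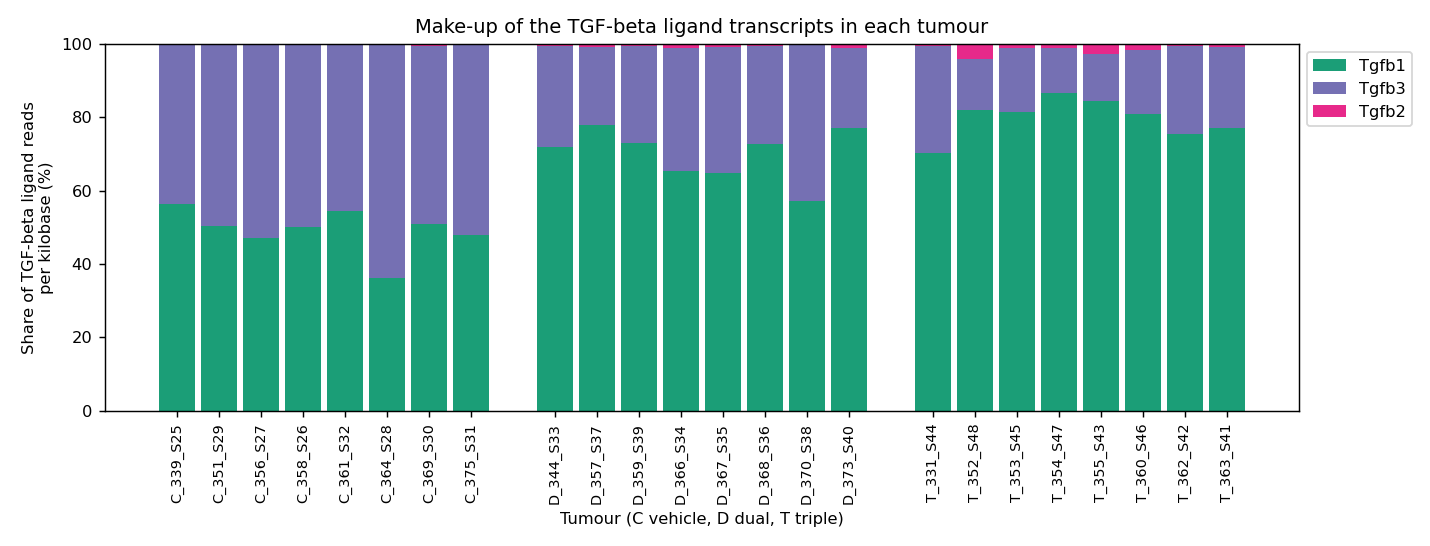
Stacked bars of the share (percent) of the summed per-length reads of Tgfb1, Tgfb2 and Tgfb3 taken by each ligand, 1 bar per tumour, ordered by group. The Tgfb1 share has a median of 50.2% in vehicle, 72.2% in dual and 81.2% in triple tumours, and the vehicle range does not reach either treated range.

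Inhba (ENSMUSG00000041324.15, GRCm39 chr13:16186436-16206206, plus strand) encodes the beta A subunit, whose dimer is activin A. It was a low gene in vehicle tumours, at 0.70, 1.70 and 2.47 log2 CPM (24 to 89 reads). Dual tumours lay at 3.02, 4.33 and 4.92 and triple tumours at 2.63, 4.34 and 6.16. Each treated tumour was above each vehicle tumour, and T_355_S43 with 1149 reads and T_352_S48 with 1008 reads were the highest of all. The log2 difference was 2.48 ± 0.38 for dual, or 5.57-fold (limma adjusted p = 3.72e-05), and 2.81 ± 0.38 for triple, or 7.00-fold (limma adjusted p = 5.10e-06), both against vehicle. Triple and dual differed by 0.33 ± 0.38 (limma adjusted p = 0.545). That last difference changed sign without the 5 muscle-rich tumours, to -0.33 ± 0.41. The pseudogene B230303A05Rik overlaps Inhba on the opposite strand at a mean of 0.38 log2 CPM, against 3.42 for Inhba.

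**Figure D3:**
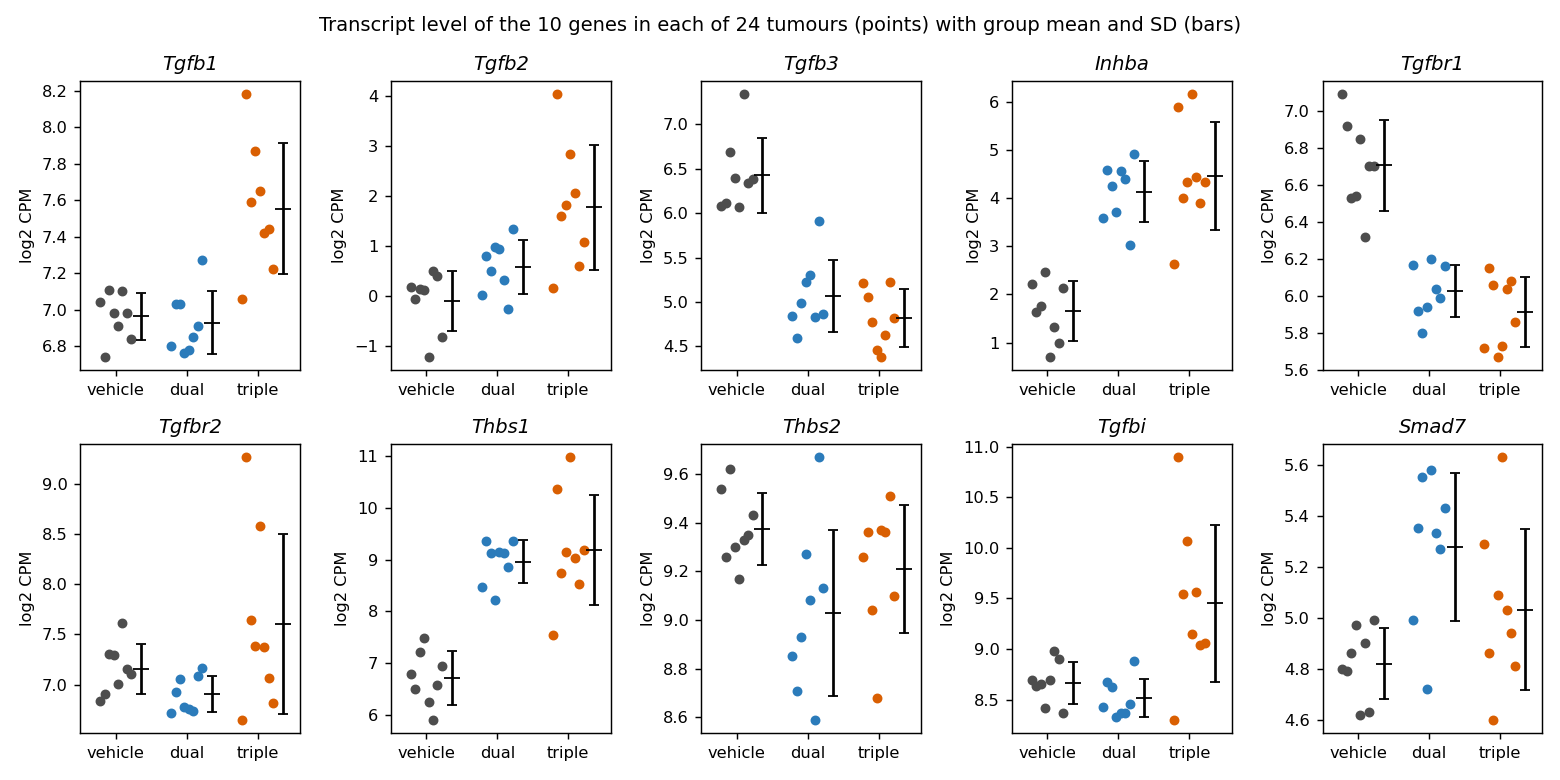
Log2 CPM of each of the 10 genes (panels) in every tumour, by group, with the group mean and a bar of 1 SD beside the points. Treated tumours lie wholly above the vehicle tumours for Inhba and Thbs1 and wholly below them for Tgfb3 and Tgfbr1, and the triple tumours spread widely for Tgfb2, Inhba, Tgfbr2, Thbs1 and Tgfbi.

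Tgfbr1 (ENSMUSG00000007613.16, GRCm39 chr4:47353222-47414931, plus strand), the type I receptor kinase that phosphorylates SMAD2 and SMAD3, fell in both treated groups. Its values were 6.32, 6.70 and 7.09 log2 CPM in vehicle, 5.80, 6.01 and 6.20 in dual and 5.67, 5.95 and 6.15 in triple tumours (lowest, median, highest). No treated tumour reached the lowest vehicle tumour, C_364_S28. The dual difference was -0.68 ± 0.10, a 1.6-fold decrease (limma adjusted p = 1.80e-05), and the triple difference was -0.79 ± 0.10, a 1.73-fold decrease (limma adjusted p = 1.74e-06). Triple and dual differed by -0.11 ± 0.10 (limma adjusted p = 0.408).

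Tgfbr2 (ENSMUSG00000032440.14, GRCm39 chr9:115913361-116004428, minus strand), the type II receptor that binds the ligand, was not called in any comparison of the main fit. Vehicle tumours lay at 6.84, 7.14 and 7.61 log2 CPM, dual tumours at 6.72, 6.85 and 7.17, and triple tumours at 6.65, 7.38 and 9.27. The groups overlapped, with T_352_S48 at 9.27 and T_355_S43 at 8.58 far above the other triple tumours, while T_331_S44 was the lowest of the 24 tumours. The difference between triple and dual was 0.69 ± 0.25 (limma adjusted p = 0.0516). It passed the threshold without any 1 of D_373_S40, T_331_S44, T_362_S42 and T_363_S41, with limma adjusted p-values of 0.0116 to 0.0499. It also passed with quantile normalization (limma adjusted p = 0.0459) and with log2(CPM + 1) values (limma adjusted p = 0.0496). A gene filter at the 25th percentile (limma adjusted p = 0.0453) and tumour weights (limma adjusted p = 0.0258) gave a call too. The remaining alternatives did not, with limma adjusted p up to 0.952. Against vehicle, dual differed by -0.25 ± 0.25 (limma adjusted p = 0.481) and triple by 0.44 ± 0.25 (limma adjusted p = 0.158), and the triple difference changed sign to -0.21 ± 0.15 without the muscle-rich tumours. The main fit shares 1 spread over the groups, and the SD was 0.90 in triple, 0.25 in vehicle and 0.18 in dual tumours. With dual and vehicle fitted alone their difference was -0.25 ± 0.10, which was called (limma adjusted p = 0.049). No other alternative called it.

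Thbs1 (ENSMUSG00000040152.9, GRCm39 chr2:117942357-117957614, plus strand) encodes thrombospondin-1, a matricellular protein released by platelets and made by many activated cells, which can activate latent TGF-beta and inhibits angiogenesis. It lay at 5.90, 6.68 and 7.49 log2 CPM in vehicle tumours, at 8.22, 9.13 and 9.37 in dual and at 7.54, 9.09 and 10.99 in triple tumours (lowest, median, highest). Treated tumours were all above the vehicle tumours, with T_331_S44, the lowest triple tumour, close above C_358_S26, the highest vehicle tumour. The rise was 2.25 ± 0.33 in dual, or 4.76-fold (limma adjusted p = 2.40e-05), and 2.49 ± 0.33 in triple, or 5.60-fold (limma adjusted p = 4.44e-06). Triple and dual differed by 0.23 ± 0.33 (limma adjusted p = 0.632). T_355_S43 decided the sign of that difference, which was -0.02 without it. The antisense lncRNA Gm29233 overlaps Thbs1 at a mean of -0.14 log2 CPM, against 8.29 for Thbs1.

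Neutrophil markers and part of the platelet list were higher in both treated groups, as were Thbs1 and Inhba. The 9 neutrophil markers measured were all called higher in both treated groups, with summed shares of 0.00300% to 0.0106% of reads in vehicle, 0.0451% to 0.0929% in dual and 0.0232% to 0.191% in triple tumours. Ngp, one of them, had 0 reads in 6 tumours. Of the platelet and megakaryocyte list, 6 of 10 genes were measured, of which 2 were called higher in dual and 3 in triple than in vehicle, and 0 lower in either. Against vehicle, 15% of all genes were called higher and 15.8% lower in dual, and 23% and 22.8% in triple tumours. The group means of Pf4, Ppbp and Itgb3 were higher in both treated groups than in vehicle. Those of Gp1ba, Itga2b and Treml1 were lower in both. Its summed share ran from 0.00375% to 0.00781% in vehicle, 0.00752% to 0.0127% in dual and 0.00751% to 0.0373% in triple tumours, and Treml1 had 0 reads in 4 tumours and Gp1ba in 1. The part of these cells in the thrombospondin and activin results was not tested.

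Thbs2 (ENSMUSG00000023885.10, GRCm39 chr17:14885762-14914497, minus strand) encodes thrombospondin-2, which lacks the sequence with which thrombospondin-1 activates latent TGF-beta and is typical of fibroblasts. It was at 9.17, 9.34 and 9.62 log2 CPM in vehicle, 8.59, 9.0 and 9.67 in dual and 8.68, 9.31 and 9.51 in triple tumours. The ranges overlapped widely, and D_370_S38 was above every other tumour. Dual was lower than vehicle by -0.35 ± 0.13 (limma adjusted p = 0.0395). Leaving out any 1 of 8 tumours (C_339_S25, C_356_S27, C_369_S30, C_375_S31, D_344_S33, D_357_S37, D_359_S39 or D_368_S36) ended that call, with limma adjusted p-values of 0.0541 to 0.0941. Triple differed from vehicle by -0.16 ± 0.13 (limma adjusted p = 0.301) and from dual by 0.18 ± 0.13 (limma adjusted p = 0.294). Per length, Thbs1 stood at 0.107 to 0.327 times Thbs2 in vehicle tumours, with a median of 0.171. The ratio was 0.559 to 1.81 in dual (median 1.27) and 0.348 to 3.53 in triple tumours (median 1.08), so that the vehicle range lay wholly below both.

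Tgfbi (ENSMUSG00000035493.11, GRCm39 chr13:56757336-56787375, plus strand) encodes a secreted matrix protein named for its induction by TGF-beta and is abundant in macrophages and fibroblasts. Vehicle tumours lay at 8.37, 8.67 and 8.98 log2 CPM, dual tumours at 8.33, 8.45 and 8.88, and triple tumours at 8.30, 9.35 and 10.90. The triple tumours held both the lowest value of all 24, in T_331_S44, and the 7 highest, led by T_352_S48. Triple exceeded vehicle by 0.79 ± 0.22, or 1.72-fold (limma adjusted p = 0.00587), and dual by 0.94 ± 0.22, or 1.91-fold (limma adjusted p = 0.00882). Dual and vehicle differed by -0.15 ± 0.22 (limma adjusted p = 0.647). Without the muscle-rich tumours the differences of triple were 0.31 ± 0.18 from vehicle (limma adjusted p = 0.202) and 0.45 ± 0.18 from dual (limma adjusted p = 0.46), and both calls were lost. With the fibroblast score as a covariate triple and dual differed by 0.44 ± 0.14 (limma adjusted p = 0.132).

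Most markers of macrophages, monocytes and T cells were called higher in triple than in dual tumours, as were Tgfbi and Tgfb1. In dual against vehicle, where Tgfb1 and Tgfbi were not called, 3 monocyte markers were called higher and 2 lower. Among macrophage markers 1 was called higher and 1 lower there, and among T cell markers 0. Over all genes 15% were called higher and 15.8% lower in dual against vehicle, and 11.4% and 9.97% in triple against dual. Of the 10 macrophage markers, 7 were called higher in triple than in dual, and their summed share ran from 0.151% to 0.224% of reads in vehicle, 0.128% to 0.178% in dual and 0.123% to 0.623% in triple tumours. None of the 10 was at 0 reads in any tumour. Of 6 monocyte markers 5 were called higher in triple than in dual, with summed shares of 0.0666% to 0.101% in vehicle, 0.0422% to 0.0725% in dual and 0.0396% to 0.212% in triple tumours. The monocyte share was mostly Vcan and Ccr2, whose means were lower in dual than in vehicle, while those of the other monocyte markers were higher. Of 8 T cell markers 6 were called higher in triple than in dual, with shares of 0.00186% to 0.00485%, 0.00223% to 0.00553% and 0.00218% to 0.0120%. Cd4, in that list, had means of 2.69, 2.56 and 2.39 log2 CPM in vehicle, dual and triple tumours. No monocyte or T cell marker was at 0 reads in any tumour. T_352_S48 was highest for the macrophage share, for Tgfb1 and for Tgfbi, and T_331_S44 was lowest of the triple tumours for all of these. The same 2 tumours held these places for the summed fibroblast, monocyte, T cell, adipocyte and endothelial markers. The match was therefore not particular to macrophage markers. The part of these cells in the higher Tgfb1 and Tgfbi was not tested.

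Smad7 (ENSMUSG00000025880.12) encodes the inhibitory SMAD of the TGF-beta and activin branches and is itself a target of both. It lay at 4.62, 4.83 and 4.99 log2 CPM in vehicle, 4.72, 5.34 and 5.58 in dual and 4.6, 4.99 and 5.63 in triple tumours. All dual tumours but D_366_S34 lay above the vehicle range, and the triple tumours overlapped with both groups. Dual exceeded vehicle by 0.46 ± 0.13, or 1.37-fold (limma adjusted p = 0.00777). Triple lay between the other groups, 0.21 ± 0.13 above vehicle (limma adjusted p = 0.175) and -0.25 ± 0.13 from dual (limma adjusted p = 0.154).

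The promoters of the 3 genes that were higher in triple than in dual tumours, and of Inhba, which had the largest change against vehicle, are shown for their differing base composition. Each runs from 250 bases before to 50 bases after the RefSeq gene start of build GRCm38.p6, in the direction of transcription. Capitals mark the GC box GGGCGG, or CCGCCC where it lies on the other strand, and the TATA sequence TATAAA, or TTTATA on the other strand. Tgfb1 spans chr7:25686752-25687051 on the plus strand, Tgfbi chr13:56609336-56609635 on the plus strand, Tgfb2 chr1:186705940-186706239 on the minus strand and Inhba chr13:16011601-16011900 on the plus strand.
Tgfb1: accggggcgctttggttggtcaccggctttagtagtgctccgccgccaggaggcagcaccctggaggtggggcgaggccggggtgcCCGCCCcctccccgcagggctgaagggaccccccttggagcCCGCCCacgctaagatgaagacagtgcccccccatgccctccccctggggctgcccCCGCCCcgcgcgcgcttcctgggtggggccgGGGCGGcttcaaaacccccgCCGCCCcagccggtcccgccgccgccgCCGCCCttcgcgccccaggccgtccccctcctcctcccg
Tgfbi: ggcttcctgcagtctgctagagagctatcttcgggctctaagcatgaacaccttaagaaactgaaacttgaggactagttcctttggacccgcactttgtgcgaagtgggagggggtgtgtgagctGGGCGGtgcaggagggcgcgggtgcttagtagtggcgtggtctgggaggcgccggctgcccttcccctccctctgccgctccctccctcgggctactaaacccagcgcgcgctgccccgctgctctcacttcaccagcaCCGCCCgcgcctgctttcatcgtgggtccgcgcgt
Tgfb2: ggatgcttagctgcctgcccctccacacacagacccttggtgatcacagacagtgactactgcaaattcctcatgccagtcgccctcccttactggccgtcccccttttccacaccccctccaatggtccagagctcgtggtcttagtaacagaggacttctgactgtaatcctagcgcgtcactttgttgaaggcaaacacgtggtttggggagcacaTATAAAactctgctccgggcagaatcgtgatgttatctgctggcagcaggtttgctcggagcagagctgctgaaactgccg
Inhba: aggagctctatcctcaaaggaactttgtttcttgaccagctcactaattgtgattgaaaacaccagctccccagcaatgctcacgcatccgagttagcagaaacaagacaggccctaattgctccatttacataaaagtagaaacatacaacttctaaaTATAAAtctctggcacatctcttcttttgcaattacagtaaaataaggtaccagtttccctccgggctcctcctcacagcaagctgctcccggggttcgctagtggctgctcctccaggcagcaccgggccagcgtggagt
The Tgfb1 promoter held 6 GC box matches and 30 CG dinucleotides at 77.0% G and C, and the Tgfbi promoter 2 matches and 22 CG dinucleotides at 63.3%. Neither of the others held a GC box match. The Tgfb2 promoter held a TATA match at position -31 from the gene start, and that of Inhba 1 match at position -91. Of all 32851 promoters of the table, 35.7% held a GC box match and 13.6% a TATA match, and the median number of CG dinucleotides was 7. RefSeq entries were matched for 7 of the 10 genes. A match describes these letters and says nothing of binding.

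Ordered by the median per-length level, in RPKM, vehicle tumours had Tgfbi (107.9) and Thbs2 (92.4) first. Then followed Tgfb1 (25), Tgfb3 (24.4), Tgfbr2 (17.2), Thbs1 (16.9) and Tgfbr1 (15.9), and last Smad7 (6.29), Inhba (0.505) and Tgfb2 (0.183). The ranges of Tgfbi and Thbs2 overlapped, and from Tgfb1 down to Tgfbr1 each gene overlapped with its neighbour, whereas Smad7, Inhba and Tgfb2 each stood clear of the next gene above. In dual tumours Thbs1 (92.0) had moved up beside Tgfbi (92.5), and Tgfb3 (9.02) had moved down beside Smad7 (8.94) and Tgfbr1 (9.89). In triple tumours the order began with Tgfbi (174), Thbs2 (90.7) and Thbs1 (89.9), with Tgfb1 (36.3) next, and ended with Inhba (3.17) and Tgfb2 (0.558).

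Triple tumours differed from one another more than the others did for several members. The standard deviation of log2 CPM was 1.07 in triple tumours for Thbs1, against 0.51 in vehicle and 0.41 in dual tumours. For Tgfbr2 it was 0.90 against 0.25 and 0.18, and for Tgfbi 0.78 against 0.21 and 0.19. For Smad7 it was 0.32 against 0.14 in vehicle and 0.29 in dual tumours. For Tgfb3 (0.32 against 0.42 and 0.41), Tgfbr1 (0.19 against 0.25 and 0.14) and Thbs2 (0.27 against 0.15 and 0.34) the triple value was not the highest of the groups. T_352_S48 was the highest triple tumour for 5 of the 10 genes and T_355_S43 for 3, while T_331_S44 was the lowest for 6.

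Within groups, members were compared in pairs over the 8 tumours of a group, 135 relations in all, with exact permutation p-values adjusted over them. Inhba and Thbs1 varied together in triple tumours, with Pearson r = 0.99 (exact permutation p = 0.000124, adjusted p = 0.00837) and Spearman rho = 0.93 (exact permutation p = 0.00223, adjusted p = 0.088). Without the 2 tumours farthest from the median of Inhba, r was 0.99. In dual tumours r was 0.73 and in vehicle tumours 0.74, each with an adjusted exact permutation p of 0.221, and rho was 0.88 (adjusted exact permutation p = 0.109) and 0.79 (adjusted exact permutation p = 0.251).

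Tgfb1 and Tgfbi were related in dual tumours, with r = 0.98 (exact permutation p = 0.000694, adjusted p = 0.0188) and rho = 0.90 (exact permutation p = 0.00456, adjusted p = 0.088), and r was 0.92 without the 2 farthest tumours. In triple tumours r was 0.93 (exact permutation p = 0.00129, adjusted p = 0.0249), rho 0.79 (exact permutation p = 0.0279, adjusted p = 0.251) and r without 2 tumours 0.72. In vehicle tumours r was 0.46 (exact permutation p = 0.249, adjusted p = 0.612) and rho 0.48 (adjusted exact permutation p = 0.592). No difference between groups in these coefficients was tested.

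The receptors ran in opposite directions among vehicle tumours. Tgfbr1 and Tgfbr2 had r = -0.98 (exact permutation p = 7.44e-05, adjusted p = 0.00837) and rho = -0.98 (exact permutation p = 0.000397, adjusted p = 0.0536), with r = -0.99 without the 2 farthest tumours. In C_339_S25 Tgfbr1 was at its highest, 7.09 log2 CPM, with Tgfbr2 at its lowest of the group, 6.84, and in C_364_S28 they stood at 6.32 and 7.61. In dual tumours r was -0.28 (adjusted exact permutation p = 0.781) and rho -0.40 (adjusted exact permutation p = 0.669). In triple tumours r was 0.33 (adjusted exact permutation p = 0.751) and rho 0.36 (adjusted exact permutation p = 0.74). Vehicle tumours also related Tgfb3 to Tgfbr2, with r = 0.93 (exact permutation p = 0.00067, adjusted p = 0.0188) and rho = 0.90 (exact permutation p = 0.00456, adjusted p = 0.088), and r was 0.87 without the 2 farthest. Tgfb3 and Tgfbr1 had r = -0.89 (exact permutation p = 0.00102, adjusted p = 0.0229), rho = -0.93 (exact permutation p = 0.00223, adjusted p = 0.088) and r = -0.88 without 2. In triple tumours Tgfb2 and Tgfbr2 had r = 0.95 (exact permutation p = 0.000645, adjusted p = 0.0188), rho = 0.88 (exact permutation p = 0.00724, adjusted p = 0.109) and r = 0.86 without 2. These 7 relations were the ones with an adjusted p under 0.05 by Pearson's r, and the smallest adjusted p by Spearman's rho was 0.0536.

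**Figure D4:**
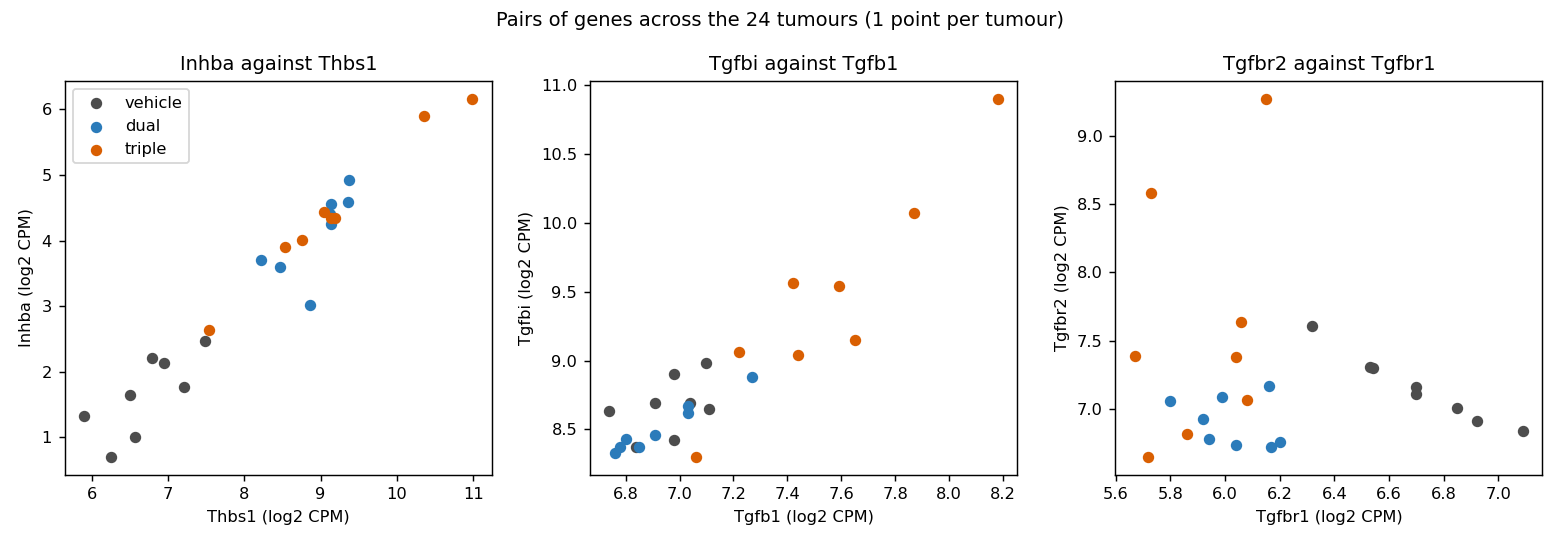
Log2 CPM of Inhba against Thbs1, Tgfbi against Tgfb1 and Tgfbr2 against Tgfbr1, 1 point per tumour, coloured by group. Inhba and Thbs1 climb together in triple tumours (r = 0.99), Tgfb1 and Tgfbi in dual and triple tumours (r = 0.98 and 0.93), and Tgfbr2 falls as Tgfbr1 climbs in vehicle tumours (r = -0.98).

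The gene most like each member was found from the Pearson correlation of deviations from the group means over the 24 tumours, among the 9202 or 9203 other genes of at least median expression. For Inhba it was Thbs1 (r = 0.90), followed by the matrix gene Tnc (0.90) and Kctd11 (0.88). For Thbs1 these were the chemokine gene Ccl3 (0.90), Smox (0.90) and Adam8 (0.89). Tgfb1 lay closest to Creb3l1 (0.95), App (0.95) and Rhog (0.95), and Tgfbi to Pld4 (0.94), Aoah (0.94) and Acp2 (0.93). For Tgfb2 the first was Lrrc32 (0.91), which encodes GARP, a cell-surface holder of latent TGF-beta, followed by Antxr1 (0.90) and Col14a1 (0.89). Tgfb3 was most like Sh3kbp1 (0.92), Maged1 (0.92) and Ube2h (0.89), and Tgfbr2 most like Atp6v0a1 (0.97), Add3 (0.96) and Fkbp15 (0.96). The likeness was lower for Thbs2, with Nr3c1 (0.81), Kremen1 (0.79) and Sec23a (0.77), and for Smad7, with Lrrfip2 (0.81), Impdh1 (0.79) and Afg3l2 (0.77). It was lowest for Tgfbr1, with Ap1s2 (0.69), Lypla1 (0.68) and Vps29 (0.68).

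A wider list of pathway genes, ordered by role, placed the 10 members in context. Of 97 genes listed, 93 were measured, and Plg, Nodal, Lefty2 and Smad9 were not analysed here. In dual against vehicle 28 were called higher, 18 lower and 47 were not called, and in triple against vehicle 42, 23 and 28. In triple against dual 9 were higher, 7 lower and 77 not called. Over all genes the shares called higher and lower were 15% and 15.8%, 23% and 22.8%, and 11.4% and 9.97% in the same order, and the list's shares lay near or below these in triple against dual and, for lower genes, in triple against vehicle. The median log2 difference of the list was 0.14, 0.23 and 0.16 in these comparisons, and that of all genes -0.03, -0.02 and -0.00. The triple and dual split moved to 7 higher and 10 lower under median centring and to 7 and 9 under quantile normalization. Without the muscle-rich tumours limma called 0 of the 93 in that comparison, with 1 higher and 3 lower at an unadjusted p under 0.05. It called 2 of all genes in that setting. With all tumours the exact permutation test called 0 higher and 3 lower, and 1350 of all genes.

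Of 21 target genes of the pathway measured, 9 were higher and 2 lower in dual than in vehicle, with a median log2 difference of 0.69, where 15% of all genes were higher and 15.8% lower. In triple against vehicle 14 were higher and 2 lower, with a median of 1.43, where 23% of all genes were higher and 22.8% lower. Between triple and dual 1 of the 21, the smooth muscle actin gene Acta2, was called (0.93 ± 0.32, limma adjusted p = 0.0392), and 5 were higher at an unadjusted p under 0.05. Acta2 lay at 3.72, 5.14 and 6.09 log2 CPM in dual and at 5.03, 5.94 and 7.52 in triple tumours, overlapping ranges. Ccn1, a matricellular gene, rose by 1.87 ± 0.25 in dual (limma adjusted p = 7.96e-06), from 3.81, 4.40 and 5.31 in vehicle to 5.56, 6.46 and 6.73 in dual tumours, which did not overlap. Snai2, a transcription factor of mesenchymal cells, rose by 0.81 ± 0.09 in triple (limma adjusted p = 5.27e-07), from 3.59, 4.0 and 4.10 to 4.35, 4.82 and 4.93, again without overlap. Against vehicle, Ccn1 was also higher in triple (1.45 ± 0.25, limma adjusted p = 6.63e-05) and Snai2 in dual tumours (0.60 ± 0.09, limma adjusted p = 2.59e-05). Id3, which TGF-beta represses in many cells and BMPs induce, fell by 0.96 ± 0.17 in dual (limma adjusted p = 0.000133) and by 0.84 ± 0.17 in triple tumours (limma adjusted p = 0.000321). Id1, on the same list and picked after its values were seen, went the other way. It was higher than in vehicle by 0.69 ± 0.16 in dual (limma adjusted p = 0.00162) and by 0.65 ± 0.16 in triple tumours (limma adjusted p = 0.00169).

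Further targets were picked after their values were seen. Among collagen genes Col1a2 was higher than in vehicle by 1.73 in dual and 3.10 in triple tumours, and Col1a1 was higher by 2.88 in triple tumours and not called in dual tumours. Col3a1 was not called, at -0.66 in dual (limma adjusted p = 0.086) and -0.31 in triple tumours (limma adjusted p = 0.400). Fn1, which encodes fibronectin and is also a TGF-beta target, was lower by -1.19 in dual and -1.22 in triple tumours. Of the 12 fibroblast markers, 1 was called higher and 4 lower in dual, and 5 higher and 3 lower in triple, both against vehicle. All genes gave 15% higher and 15.8% lower in dual, and 23% and 22.8% in triple. Their part in the target genes was not tested.

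Of 16 genes of latency and activation measured, 3 were higher and 6 lower in dual than in vehicle, 7 and 7 in triple than in vehicle, and 3 and 0 in triple than in dual, with 1 lower there at an unadjusted p under 0.05. The shares of all genes were 15% higher and 15.8% lower, 23% and 22.8%, and 11.4% and 9.97% in the same order. Ltbp1, a latent TGF-beta binding protein, rose from 6.96, 7.25 and 7.42 log2 CPM in vehicle to 7.97, 8.47 and 8.67 in dual (1.19 ± 0.14, limma adjusted p = 2.26e-06), without overlap. Triple tumours lay at 7.33, 8.20 and 8.59 (0.91 ± 0.14, limma adjusted p = 2.6e-05). Itgb8, the integrin subunit that activates latent TGF-beta, was lower by -1.89 ± 0.27 in dual (limma adjusted p = 1.54e-05) and by -1.71 ± 0.27 in triple tumours (limma adjusted p = 2.57e-05). Its values were 2.32, 2.58 and 2.97 in vehicle, -0.33, 0.69 and 1.69 in dual and -0.15, 1.12 and 1.52 in triple tumours. Nrros, which holds latent TGF-beta on myeloid cells, was higher in triple than in dual tumours by 0.97 ± 0.25 (limma adjusted p = 0.0123).

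Of 11 genes listed as other family ligands, 3 were higher and 2 lower in dual, 4 and 3 in triple against vehicle, and 1 and 0 in triple against dual, with 0 lower there also at an unadjusted p under 0.05. The list includes Bmp1, a protease and not a ligand, which is counted among the lower genes in both comparisons with vehicle. The stress-induced Gdf15 rose by 2.14 ± 0.39 in dual (limma adjusted p = 0.000203) and 2.6 ± 0.39 in triple tumours (limma adjusted p = 1.50e-05), and Bmp1, a procollagen protease, fell by 0.55 ± 0.13 (limma adjusted p = 0.00165) and by 0.49 ± 0.13 (limma adjusted p = 0.00284). Bmp6 was higher in triple than in dual by 1.59 ± 0.54 (limma adjusted p = 0.0387). It was close to the floor, from -1.88 to -0.14 log2 CPM in dual and -1.65 to 3.23 in triple tumours, which overlapped. Gdf15 was also low in vehicle tumours, from -0.83 to 1.05, and ran from 0.19 to 3.13 in dual and 1.29 to 3.77 in triple tumours. Of 13 other receptors and co-receptors, 2 were higher and 2 lower in dual, 5 and 3 in triple against vehicle, and 2 and 2 in triple against dual. For the ligands and the receptors alike, the shares of all genes were 15% and 15.8%, 23% and 22.8%, and 11.4% and 9.97%. Acvr1b, the type I receptor for activin, rose by 0.30 ± 0.08 in dual (limma adjusted p = 0.00708) and 0.49 ± 0.08 in triple tumours (limma adjusted p = 5.27e-05), while Acvr2a, a type II receptor for activin, fell by 0.44 ± 0.12 in dual (limma adjusted p = 0.00552). Acvr2a was also lower in triple tumours than in vehicle (-0.48 ± 0.12, limma adjusted p = 0.00178). Bmpr1a, a BMP receptor, fell by 0.51 ± 0.10 in triple against vehicle (limma adjusted p = 0.000304). Between triple and dual, Acvrl1, the endothelial receptor ALK1, was higher by 0.82 ± 0.27 (limma adjusted p = 0.0339), and Acvr2b was lower by -0.66 ± 0.21 (limma adjusted p = 0.0275).

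Among 8 SMADs and partners, 2 were higher and 1 lower in dual, 1 and 1 in triple against vehicle, and 1 and 2 in triple against dual. All genes gave 15% higher and 15.8% lower, 23% and 22.8%, and 11.4% and 9.97% in these comparisons. Smad5, which carries BMP signals, fell by 0.57 ± 0.12 in dual (limma adjusted p = 0.000803) and by 1.01 ± 0.12 in triple tumours (limma adjusted p = 1.06e-06). Smad6, the inhibitor of the BMP branch, was higher in triple than in vehicle by 2.04 ± 0.48 (limma adjusted p = 0.00151) and than in dual by 1.43 ± 0.48 (limma adjusted p = 0.0376). It was close to the floor, with overlapping groups. Its values ran from -2.24 to -0.38 log2 CPM in vehicle, -1.54 to 1.05 in dual and -1.59 to 3.22 in triple tumours. Smad2 was lower in triple than in dual by -0.29 ± 0.06 (limma adjusted p = 0.00673). Zfyve9, the SMAD anchor SARA, was higher in dual by 0.27 ± 0.09 (limma adjusted p = 0.0205).

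Negative regulators included the antagonists of activin. Of 15 measured, 6 were higher and 3 lower in dual, 7 and 6 in triple against vehicle, and 0 and 2 in triple against dual, with 1 higher there at an unadjusted p under 0.05. Over all genes 15% were higher and 15.8% lower, 23% and 22.8%, and 11.4% and 9.97% in turn. Fst, which encodes the activin-binding follistatin, rose with Inhba, by 2.7 ± 0.30 in triple tumours (limma adjusted p = 3.93e-07), and its values were 1.93, 2.34 and 3.25 log2 CPM in vehicle and 4.32, 5.22 and 5.60 in triple tumours. Fstl3, which encodes another activin-binding protein, rose by 1.35 ± 0.16 in dual (limma adjusted p = 1.46e-06), from 3.26, 3.94 and 4.42 to 4.94, 5.38 and 5.55. Neither pair of groups overlapped. Against vehicle, Fst was also higher in dual (2.38 ± 0.30, limma adjusted p = 3.56e-06) and Fstl3 in triple tumours (0.93 ± 0.16, limma adjusted p = 5.90e-05). Dcn, the matrix proteoglycan decorin, which binds TGF-beta, fell by 1.01 ± 0.26 in dual (limma adjusted p = 0.0044), and Skil, a SMAD co-repressor, fell by 0.40 ± 0.10 in triple tumours against vehicle (limma adjusted p = 0.00276). Dcn was also lower in triple (-0.94 ± 0.26, limma adjusted p = 0.00488) and Skil in dual tumours (-0.38 ± 0.10, limma adjusted p = 0.00729). Smurf2, a ubiquitin ligase, was lower in triple than in dual by -0.29 ± 0.07 (limma adjusted p = 0.0103).

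Of 9 other thrombospondins and thrombospondin receptors, 3 were higher and 2 lower in dual, 4 and 1 in triple against vehicle, and 1 and 1 in triple against dual. The background over all genes was 15% and 15.8%, 23% and 22.8%, and 11.4% and 9.97%. Cd36, a receptor for thrombospondin-1 that is also a fatty acid transporter, was at 3.32, 4.2 and 4.45 log2 CPM in vehicle, 4.63, 5.0 and 5.32 in dual and 4.66, 6.52 and 8.64 in triple tumours. It was higher in triple than in vehicle by 2.38 ± 0.39 (limma adjusted p = 4.71e-05) and than in dual by 1.46 ± 0.39 (limma adjusted p = 0.0151). Adipocytes also express Cd36. The 9 adipocyte markers measured took 0.00588% to 0.00963% of reads in vehicle, 0.00775% to 0.0119% in dual and 0.00792% to 0.0270% in triple tumours, with 2 of 9 called higher between triple and dual, and their part was not tested. In the same comparison 7 of 10 macrophage and 5 of 6 monocyte markers were called higher, and the part of those cells was not tested either. Cd47, the other main receptor, rose by 0.37 ± 0.09 in dual (limma adjusted p = 0.00338) and by 0.53 ± 0.09 in triple tumours (limma adjusted p = 8.60e-05). Cacna2d1, a calcium channel subunit that binds thrombospondins, was lower by -1.19 ± 0.14 in dual (limma adjusted p = 1.94e-06) and by -1.34 ± 0.14 in triple tumours (limma adjusted p = 2.61e-07). Sdc1, a heparan sulfate proteoglycan, was lower in triple than in dual by -0.31 ± 0.11 (limma adjusted p = 0.0409).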

How the data were processed

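Per the submitters' processing notes, the tools were STAR 2.7.9a, FastQC 0.11.8, limma, edgeR and featureCounts 1.6.0, on the GRCm39 build, without settings. The authors deposited log2 values, which their lowest steps identify as log2 CPM with an offset of 0.5 reads on a scaled library size. Whole reads were worked back from 100% of values within 0.01 reads. The filter on genes and the strand setting are not given in the sources used here. 

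The table of 18723 genes in 24 tumours was fitted with limma 3.58.1 (R 4.3.3): a mean for each group, all tumours together, with a variance trend and Benjamini-Hochberg adjustment over all genes. The same steps were tested on simulated data. Per-length levels used the union of GENCODE vM21 exons, and promoters came from RefSeq (GRCm38.p6). Correlations and figures were made in Python 3.11.15 with pandas 2.3.3 and matplotlib 3.10.9.

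The muscle and fibroblast scores average the standardised levels of their markers in each tumour. The members, the wider list and the marker lists were chosen with earlier results of these data known. From the wider list the text names, for each role and comparison, the called gene with the smallest p in each direction, and from the rest of the table the 3 genes most like each member. Genes outside that rule are stated to have been picked after their values were seen. Alternatives varied the weights, scaling, offset, filter, variance model, covariates, test, threshold and tumours in the fit. The values of 1 gene of the wider list are not reported here.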

Additional observations from a re-analysis of the deposited data

Results flagged for a closer look

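Of 129 groups of 8 values tested for a single distant tumour by Dixon's test, 9 had one, where chance gives about 1 in 20, and 0 of these were among the 30 groups of the members' own levels. Dual tumour D_370_S38 accounted for 4. It was low for Gdf15 at 0.19 log2 CPM and high for Acvr2a at 5.44, Smad2 at 6.53 and Smurf2 at 6.76, each far from the other 7 dual tumours. Triple tumour T_352_S48 was high for Bmp1 at 9.32 and Cd47 at 8.89 log2 CPM. Vehicle tumour C_358_S26 was low for Acvr2a at 4.76. Vehicle tumour C_364_S28 was apart in the ligand pool, where Tgfb1 made up 36.2% and Tgfb3 63.5% of the summed per-length TGF-beta reads.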

How the results depend on the processing

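Of the values of single members under alternatives other than leaving out 1 tumour, 409 kept their direction and their side of the threshold, 23 lost a call, 7 gained one and 11 changed sign. The calls of Tgfb3, Inhba, Tgfbr1 and Thbs1 against vehicle held under all of these, as they did with each tumour left out in turn. The muscle covariate left 4 members and 27 wider genes called in triple against vehicle, and leaving out the muscle-rich tumours left 41 wider genes. Over all genes these settings left 3407 and 5701 calls, against 8560 in the main fit. In triple against dual, both settings left 0 members and 0 wider genes, and the fibroblast covariate left 1 member and 0 wider genes. Over all genes the muscle covariate left 6 calls, leaving out the muscle-rich tumours 2 and the fibroblast covariate 183, against 4007 in the main fit. In the same comparison the wider count was 2 with the triple and dual groups fitted alone, 3 by exact permutation and 1 at an adjusted p under 0.01. Fitting those groups alone called 1374 of all genes, and exact permutation 1350. Leaving out single tumours gave 7 to 38, with 38 without T_331_S44, 7 without D_367_S35 or T_353_S45, 8 without T_352_S48 or T_354_S47, and 9 without D_344_S33, D_366_S34 or D_368_S36.

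With the fibroblast covariate the dual against vehicle difference changed sign to 0.10 for Tgfb1, 0.056 for Tgfbr2 and 0.096 for Tgfbi. In triple against vehicle Tgfbr2 became -0.029 with the muscle covariate and -0.21 without the muscle-rich tumours. In triple against dual, Inhba became -0.066 (muscle covariate), -0.36 (fibroblast covariate) and -0.33 (without muscle-rich tumours), and Thbs1 became -0.074, -0.39 and -0.37. Thbs1 ran from -0.023 to 0.47 when single tumours were left out. The cause was not tested. The median of all genes stood at -0.11 for triple against vehicle under quantile normalization and at -0.10 for triple against dual under median centring. Tgfb2, at 6 to 24 reads in vehicle tumours, is limited by depth. No paired analysis was possible because no replicate number is shared between groups.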
